A study of Mus musculus with 6 samples.

Results

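Myostatin and the activin ligands, receptors and binding proteins were followed as 10 genes of the 55487 gene identifiers in the count table. The ligand genes were Mstn, Gdf11, Inhba and Inhbb, the genes of the follistatin family were Fst, Fstl3 and Fstl1, and the receptor genes were Acvr2a, Acvr2b and Acvr1b. They were chosen by the difference between high and normal glucose in these same libraries, in which Mstn stood out as low, and by their place in 1 signalling pathway with it. Their values in that comparison are therefore a description and carry no test. All 10 passed the filter on low counts, which kept 19015 genes.

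The libraries were polyA RNA of cells from the skin of C57BL/6 mice, isolated with CD31 microbeads and labelled as endothelial cells (ECs). An isolation used 4 to 6 mice aged 2 to 3 months. For 48 hours the cells were in medium with 5 mmol/L glucose (normal glucose, n = 3 samples) or 20 mmol/L glucose (high glucose, n = 3 samples), which the study used to mimic hyperglycemia. The study counts replicates of these groups as mice, while its isolations pooled mice, and the labels do not say whether the 3 samples of a group came from separate isolations. P values therefore measure the spread between these samples, which may be technical.

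Total counts lay between 120192466 and 146881356 per sample, and 3 counts corresponded to 0.0204 to 0.025 CPM, the count scaled to a common library size. This floor was taken before the normalization by the trimmed mean of M values (TMM) that the other CPM values carry. Several defining endothelial markers were near or at this floor. Pecam1, which encodes CD31, had between 9 and 19 counts per sample, Tie1 and Cldn5 had at most 2 and 4 counts, and Robo4 had 0 counts in 5 of the 6 samples. Others were counted more often, led by Egfl7 at 11.1 and 9.44 CPM and Kdr at 4.95 and 5.50 CPM in normal and high glucose. Of the 8 tested, Cdh5 (1.80 and 0.875 CPM) and Egfl7 passed as lower, Tek (1.29 and 2.04 CPM) and Erg (0.0373 and 0.106 CPM) passed as higher, and 4 did not pass. All 12 endothelial markers together held 19.8 to 20.8 CPM in normal glucose and 18.7 to 19.3 CPM in high glucose. The 10 fibroblast markers, which include Col1a1, Col3a1 and Pdgfra, held 34200 to 37560 CPM in normal glucose and 64540 to 69130 CPM in high glucose, and 9 of the 10 passed the test as higher and 1, Thy1, as lower. Of the markers of other cell types that were tested, 3 of 4 for Schwann cells passed as lower (summed 18.6 to 19.2 and 12.8 to 13.6 CPM in normal and high glucose) and 3 of 4 for adipocytes as higher (207 to 258 and 246 to 283 CPM). For macrophages the sum was 15.6 to 17.8 and 25.2 to 26.0 CPM, but Cd14 alone passed as higher, while Csf1r and Cd68 passed as lower and Ptprc and Adgre1 were at 0 in 5 of the 6 samples. For mural cells (917 to 1008 and 881 to 941 CPM), Rgs5 passed as higher, Cspg4 and Acta2 as lower, and 3 genes did not pass. For keratinocytes (2.09 to 2.97 and 2.23 to 2.45 CPM, mostly Krt10, which did not pass), Krt5 passed as higher at 0.0152 and 0.123 CPM, and Krt14, below the filter, had at most 2 counts in normal glucose and 9 to 35 in high glucose. Over all tested genes, the shares that passed were 14.5% as lower and 16.9% as higher. The part of the marker differences in the results on the pathway was not tested. In these bulk samples, fewer cells of a type and less RNA per cell cannot be told apart.

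Myostatin, GDF11 and the activins are secreted members of the transforming growth factor β (TGF-β) family. They are made as precursors, which proteases of the furin group cut and, for myostatin and GDF11, proteases of the tolloid group release from the bound propeptide. The mature ligands bind type II receptors (ACVR2A, ACVR2B), which recruit type I receptors such as ACVR1B, and the signal reaches the nucleus through SMAD2 and SMAD3 with SMAD4. Follistatin and FSTL3 bind the ligands outside the cell and keep them from their receptors. Myostatin is best known as a brake on skeletal muscle growth, and activin A is known in skin as a factor of wound repair.

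Mstn, which encodes myostatin, had the lowest ratio of high to normal glucose of the 10 genes. It is listed as ENSMUSG00000026100, a protein-coding gene at chr1:53061640-53068079 on the plus strand of GRCm38, with 3 exons and no exon shared with another annotated gene. Normal glucose samples held 956, 1277 and 964 reads of it, and high glucose samples 95, 76 and 91. After normalization by the trimmed mean of M values (TMM), these were 7.63, 9.0 and 7.53 CPM in normal glucose and 0.670, 0.654 and 0.675 CPM in high glucose. The groups did not overlap, with high glucose low throughout. The high glucose samples lay close together, but at 76 to 95 counts each their small spread understates the counting error. The mean was 8.05 ± 0.822 CPM in normal glucose and 0.666 ± 0.0112 CPM in high glucose (SD, n = 3), a log2 ratio (the fitted log2 fold change of high over normal glucose) of -3.59 (standard error 0.11), or a 12.1-fold lower level. Among the 19015 tested genes, 8 had a lower fold change than Mstn. Leaving out each sample in turn gave log2 ratios between -3.65 and -3.52.

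**Figure D1:**
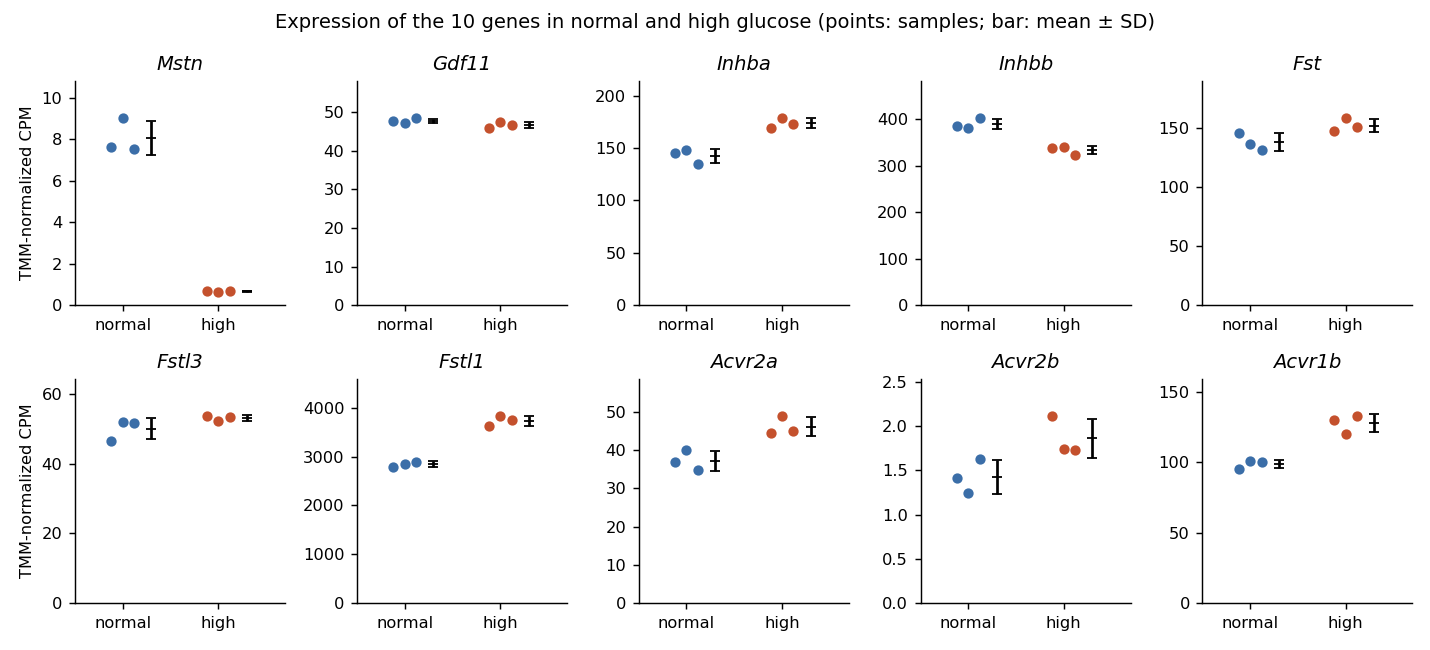
TMM-normalized CPM (y axis, from 0, a scale of its own for each gene) of the 10 genes in normal and high glucose (x axis). Points are samples, and the bars give the mean ± SD of 3 samples. Mstn lay between 7.53 and 9.0 CPM in normal glucose and between 0.654 and 0.675 CPM in high glucose, whereas Gdf11 lay between 45.8 and 48.4 CPM in both.

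Since Mstn is known as a gene of skeletal muscle, markers of muscle cells were read in the same libraries. Myod1, Myf5 and Myog, the transcription factors that define myoblasts, had 0 counts in all 6 samples, Pax7 had at most 3 counts and Ckm at most 2. The 11 muscle markers together held 7.07 to 8.59 CPM in normal glucose and 3.61 to 4.03 CPM in high glucose. Of this sum, Acta1, the skeletal muscle actin gene, held 5.21 CPM in normal glucose and 1.62 CPM in high glucose, a log2 ratio of -1.69 (standard error 0.12, edgeR adjusted P = 2.79e-06). Des, which encodes desmin, fell by 0.71 on the log2 scale (edgeR adjusted P = 0.0148). The other 3 tested muscle markers were counted in every sample and did not pass, with log2 fold changes of -0.43 for Cdh15, -0.28 for Mylpf and 0.31 for Tnnt3 (edgeR adjusted P = 0.267, 0.178 and 0.325). Among the muscle markers, the myoblast transcription factor genes Myod1, Myf5 and Myog were thus at 0. Of the 5 tested markers, 2 passed as lower, where 14.5% of all tested genes did.

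GDF11 is the closest relative of myostatin. The longest run of identical bases that the transcripts of both genes had in common was 12 bases. Among the 45 pairs of the 10 genes, the longest common run was 20 bases, between Gdf11 and Acvr2b.

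Gdf11 (ENSMUSG00000025352, chr10:128882295-128891718, minus strand) had 47.6, 47.2 and 48.4 CPM in normal glucose and 45.8, 47.5 and 46.6 CPM in high glucose. The groups overlapped, and the log2 ratio was -0.03 (standard error 0.048). Within each library the level of Mstn per kb of exon was 0.241, 0.286 and 0.234 times that of Gdf11 in normal glucose. In high glucose this ratio was 0.0220, 0.0207 and 0.0218. The 2 related ligand genes thus stood in a different proportion in every high glucose library from that in any normal glucose library. Mstn was chosen for its difference and Gdf11 hardly changed, so this proportion restates the difference in Mstn.

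The promoters of both genes were read from RefSeq (GRCm38.p6), which held that of each of the 10 genes except Fst. The 250 bases before the annotated start are given, since these 2 genes encode like ligands and differed in fold change. Capitals mark each match to a TATA box (TATAAA, sense strand only), an E-box (CANNTG), a SMAD box (CAGAC or its complement), a CCAAT box (CCAAT or its complement) and a GC box (GGGCGG or its complement). The Mstn stretch is chr1:53061390-53061639 on the plus strand, and the Gdf11 stretch is chr10:128891719-128891968 on the minus strand.
Mstn promoter: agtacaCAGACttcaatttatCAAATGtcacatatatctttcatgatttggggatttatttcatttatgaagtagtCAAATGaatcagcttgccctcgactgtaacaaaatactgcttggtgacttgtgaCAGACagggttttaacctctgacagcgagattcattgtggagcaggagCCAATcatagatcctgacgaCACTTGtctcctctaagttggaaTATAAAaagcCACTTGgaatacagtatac
Gdf11 promoter: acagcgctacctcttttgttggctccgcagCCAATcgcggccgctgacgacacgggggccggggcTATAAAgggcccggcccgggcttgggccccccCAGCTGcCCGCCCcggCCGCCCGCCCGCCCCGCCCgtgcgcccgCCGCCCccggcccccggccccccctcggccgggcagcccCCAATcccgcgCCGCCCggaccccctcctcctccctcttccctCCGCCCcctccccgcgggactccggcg
The Mstn stretch held 1 TATA box, which began 29 bases before the start, 4 E-boxes, 2 SMAD boxes and no GC box, and 38.4% of its bases were G or C. The Gdf11 stretch held 1 TATA box, which began 185 bases before the start, 8 GC boxes, some of them overlapping, 1 E-box and no SMAD box, with 81.2% G or C, whereas the median of all 32851 promoters was 52.4%. Both stretches held a CCAAT box. Mstn had 1, which began 72 bases before the start, and Gdf11 had 2, which began 220 and 70 bases before it. Of all promoters, 7.59% held this TATA box, 66.2% an E-box, 42.2% a SMAD box, 33.8% a CCAAT box and 32.7% a GC box. Inhba was the other of the 9 promoters with a G or C content below that median (43.2%). It also held a match to the TATA box, which began 91 bases before the start. None of the 9 held the FOXO core TGTTTAC on either strand, which 3.17% of all promoters held. These matches describe the letters alone.

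Inhba and Inhbb encode the βA and βB subunits, whose dimers are activin A and activin B. Inhbb (ENSMUSG00000037035, chr1:119415465-119422248) had 385, 382 and 402 CPM in normal glucose and 338, 339 and 323 CPM in high glucose. All high glucose samples were lower, with a log2 ratio of -0.23 (standard error 0.050). Inhba (ENSMUSG00000041324, chr13:16011851-16031621) had 145, 148 and 135 CPM in normal glucose and 169, 178 and 173 CPM in high glucose. All high glucose samples were higher, with a log2 ratio of 0.28 (standard error 0.055). The level of Inhbb per kb was 3.99, 3.87 and 4.48 times that of Inhba in normal glucose and 3.01, 2.86 and 2.80 times in high glucose, so the subunit that was higher stayed Inhbb in each library while the ratio was lower in all 3 high glucose samples.

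Among the follistatin family, Fstl1 had the largest difference. Fstl1 (chr16:37776873-37836514) encodes a secreted glycoprotein with a follistatin-like domain. It had 2781, 2856 and 2893 CPM in normal glucose and 3626, 3831 and 3756 CPM in high glucose, a log2 ratio of 0.40 (standard error 0.050). Fst (chr13:114452290-114458951), which encodes follistatin, had 146, 137 and 132 CPM in normal glucose and 147, 159 and 151 CPM in high glucose. In TMM-normalized CPM the groups did not overlap by a small margin, and the log2 ratio was 0.14 (standard error 0.057). Fstl3 (chr10:79777272-79782630) had 46.5, 52.1 and 51.9 CPM in normal glucose and 53.7, 52.2 and 53.4 CPM in high glucose, with a log2 ratio of 0.08 (standard error 0.058). Its highest normal glucose sample lay just below its lowest high glucose sample, and with scaling by library size alone the sign turned (-0.03). Fstl3 shares 47.3% of its exonic bases with Prss57 on the opposite strand. Whether strand was used in counting is not given, so reads of the pair cannot be told apart, and Prss57 was counted at 0.246 and 0.169 CPM only. Fst shares 2.51% of its exonic bases with Gm47040, which lies on the opposite strand and did not pass the filter.

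In TMM-normalized CPM, all 3 receptor genes were higher in every high glucose sample than in any normal glucose sample. The same held for 4783 of the 19015 tested genes. The margin was small for Acvr2b, which did not pass the threshold on the adjusted P value. Its groups overlapped when counts were scaled by library size alone. Acvr1b (chr15:101174067-101213684), the type I receptor ALK4, had 95.5, 101 and 101 CPM in normal glucose and 130, 120 and 133 CPM in high glucose. Its log2 ratio was 0.37 (standard error 0.056). Acvr2a (chr2:48814109-48903269) had 36.9, 40.0 and 34.7 CPM in normal glucose and 44.6, 48.9 and 44.9 CPM in high glucose, a log2 ratio of 0.31 (standard error 0.066). It shares 7.84% of its exonic bases with Orc4 on the opposite strand, which did not pass the test (log2 ratio -0.19, adjusted P = 0.0630). Acvr2b (chr9:119402118-119434995) was counted 177, 176 and 208 times in the normal and 300, 203 and 233 times in the high glucose samples. These were 1.41, 1.24 and 1.62 CPM against 2.12, 1.75 and 1.73 CPM, and the log2 ratio was 0.39 with the largest standard error of the 10 genes (0.14).

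In all, 2 of the 10 genes (Mstn and Inhbb) passed an adjusted P value of 0.05 as lower and 4 (Inhba, Fstl1, Acvr2a and Acvr1b) as higher. Of all tested genes, 14.5% passed as lower and 16.9% as higher, or 31.4% in either direction. In TMM-normalized CPM, the groups did not overlap for 9 of the 10 genes and for 46.4% of all tested genes. With scaling by library size alone, the groups of Fst, Fstl3 and Acvr2b overlapped and those of Gdf11 did not. The median log2 ratio was 0.21 over the 10 genes and 0.0062 over all tested genes, and the median size of the change, without its sign, was 0.30 and 0.20. Apart from Mstn, the fold changes lay between -0.23 and 0.40. Since the comparison was used to choose the genes, nothing is read from these counts.

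**Figure D2:**
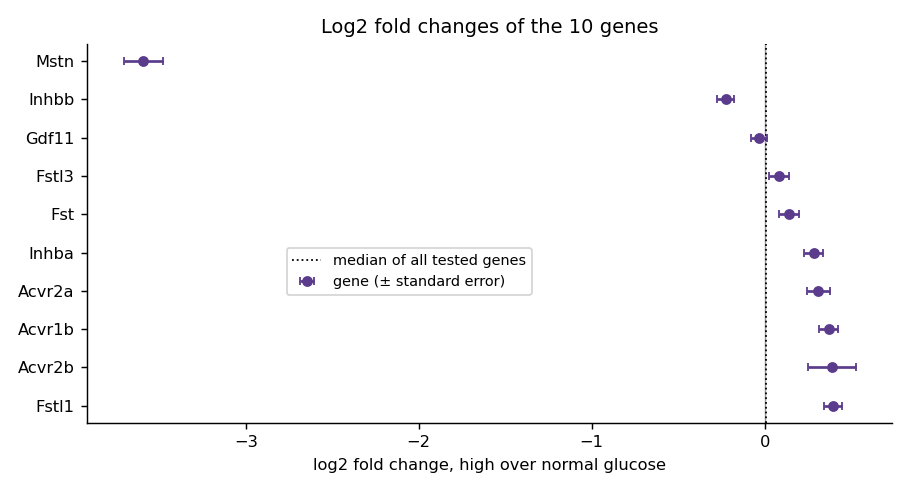
Log2 ratio of high over normal glucose (x axis) for the 10 genes (y axis, in the order of their fold change). Points are the fitted values, bars are standard errors, and the dotted line is the median of all tested genes (0.0062). Mstn lies at -3.59, and the other 9 genes lie between -0.23 (Inhbb) and 0.40 (Fstl1).

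To compare levels between genes, normalized CPM were divided by the length of the union of annotated exons (RPKM). In normal glucose the order was Fstl1 at 579 ± 11.7 RPKM, Inhbb at 91.6 ± 2.47, Fst at 30.1 ± 1.65, Acvr1b at 22.4 ± 0.669, Inhba at 22.3 ± 1.12, Fstl3 at 20.5 ± 1.28, Gdf11 at 11.8 ± 0.143, Acvr2a at 6.54 ± 0.467, Mstn at 2.98 ± 0.304 and Acvr2b at 0.363 ± 0.0489 RPKM (SD, n = 3). Acvr1b and Inhba overlapped, as did Inhba and Fstl3, and the other neighbours in this order did not. In high glucose the order was the same except that Mstn, at 0.246 ± 0.00414 RPKM, came after Acvr2b, at 0.474 ± 0.0555 RPKM. There, Acvr1b at 28.9 ± 1.49 and Inhba at 27.2 ± 0.752 RPKM were the only neighbours that overlapped. Mstn was at or above 53.1% of the tested genes per length in normal glucose and 21.6% in high glucose, while Fstl1 was at or above 99.8% and 99.9%. With the longest transcript in place of the union of exons, Fstl3 (25.7 RPKM) came before Acvr1b (22.4) and Inhba (22.3) in normal glucose, and at 27.2 RPKM it was level with Inhba in high glucose. The level of Acvr2a per kb was 14.8 to 22.3 times that of Acvr2b in normal glucose and 14.6 to 19.3 times in high glucose, so Acvr2a was the more abundant type II receptor gene in each library.

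**Figure D3:**
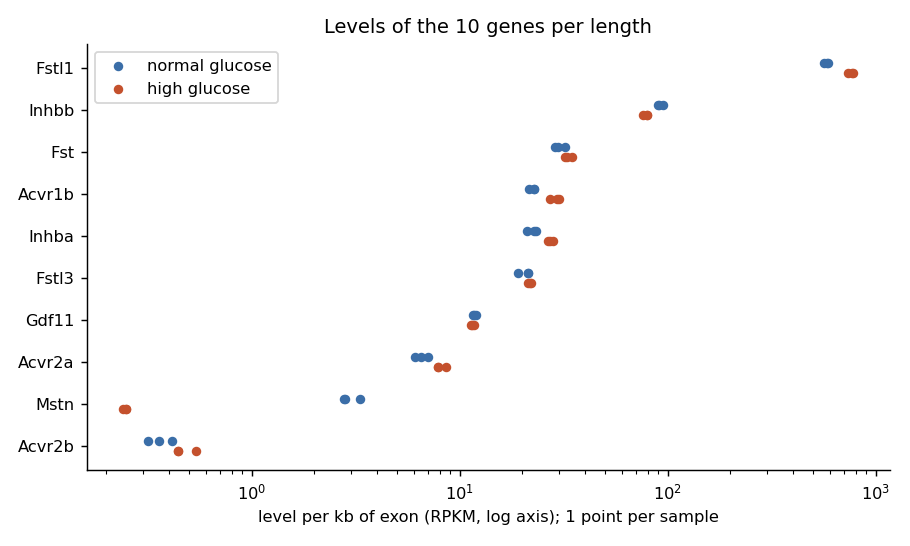
Level per kb of exon (RPKM, x axis, log scale) of the 10 genes (y axis, by their level in normal glucose), with 1 point for each of 3 normal and 3 high glucose samples. The levels run from 0.363 RPKM for Acvr2b to 579 RPKM for Fstl1 in normal glucose, and Mstn moves from 2.98 RPKM to 0.246 RPKM, below Acvr2b.

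The other genes of the pathway were taken from a list of 47 genes by role. Of these, 39 passed the filter, 18 were higher and 9 lower in high glucose (adjusted P under 0.05 in edgeR), and 12 did not pass the test. These are 69.2% called in either direction, beside 31.4% of all tested genes (16.9% higher and 14.5% lower). The list was written with earlier results of these data known, so the 2 shares are a description and no test of the pathway. The median log2 ratio of the 39 was 0.15, against 0.0062 for all tested genes. Scaling by library size alone, which moved the median of all genes from 0.006 to -0.11, left 9 higher and 11 lower genes of the list. Without high glucose replicate 1, 10 were higher. Nodal, Tdgf1 and Cfc1 had 0 counts in all samples. Inhbc, Inhbe, Gdf3, Fstl5 and Foxh1 were also below the filter.

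The propeptide-cleaving proteases held the largest changes of the list. Pcsk5, a proprotein convertase, rose from 261 ± 13.1 to 753 ± 7.59 CPM (SD, n = 3), a log2 ratio of 1.53 (standard error 0.054, edgeR adjusted P = 4.27e-08). Pcsk6, another convertase, rose from 0.493 ± 0.0651 to 2.05 ± 0.0339 CPM, a log2 ratio of 2.06 (adjusted P = 2.11e-06). Furin rose by 0.22 on the log2 scale (adjusted P = 0.0120), a call that was lost with library size scaling (adjusted P = 0.148) and without high glucose replicate 1, 2 or 3 (adjusted P = 0.0815, 0.0532 and 0.0631). The tolloid proteases were divided. Tll2 fell from 2.46 ± 0.317 to 0.783 ± 0.0930 CPM, a log2 ratio of -1.65 (adjusted P = 1.42e-05), and Tll1 fell from 8.99 ± 0.807 to 3.99 ± 0.251 CPM, a log2 ratio of -1.17 (adjusted P = 8.68e-06). Bmp1, of the same protease group and far more abundant, rose from 841 ± 21.6 to 1090 ± 50.1 CPM, a log2 ratio of 0.37 (adjusted P = 4.56e-04). Pcsk7 had a log2 ratio of 0.12 that did not pass (edgeR adjusted P = 0.0998).

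Of the extracellular binders, Wfikkn2, Dcn and Ltbp3 rose and the other 3 tested genes did not pass, where 16.9% of all tested genes passed as higher. Wfikkn2 encodes GASP-1, a protein that binds myostatin and GDF11, and it rose from 1.25 ± 0.185 to 2.76 ± 0.145 CPM (SD, n = 3), a log2 ratio of 1.15 (standard error 0.13, edgeR adjusted P = 8.21e-05). Its relative Wfikkn1 had 0.695 and 0.673 CPM (adjusted P = 0.842). Dcn, which encodes the proteoglycan decorin, rose from 4492 ± 97.0 to 6748 ± 413 CPM (adjusted P = 3.23e-05), and Ltbp3, of the latent TGF-β binding proteins, rose from 359.2 ± 21.97 to 500 ± 24.0 CPM (adjusted P = 2.18e-04). Dcn is also a gene of fibroblasts, whose markers were higher in the same samples.

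Among the other ligands, Inha, the inhibin α subunit, which joins a β subunit to form the activin antagonist inhibin, rose from 3.62 ± 0.500 to 5.52 ± 0.823 CPM (SD, n = 3), a log2 ratio of 0.61 (edgeR adjusted P = 0.00589). Lefty1, an antagonist of nodal, fell by 0.27 on the log2 scale (adjusted P = 0.0369), but this call was lost in 5 of the 6 fits that left out a sample, all but that without normal glucose replicate 2 (adjusted P of the 5 between 0.0527 and 0.125). Lefty2 did not pass, nor did Gdf1, all of whose exonic bases lie within Cers1, with a log2 ratio of -1.22 (adjusted P = 0.146) that passed without normal glucose replicate 1 (-1.72, adjusted P = 0.00195) and was smallest without normal glucose replicate 3 (-0.39, not passing). Among the receptors, Tgfbr3, which encodes betaglycan, a co-receptor of inhibin, rose from 613 ± 11.7 to 751 ± 14.4 CPM (adjusted P = 0.00107). Acvr1, Acvr1c and Bambi rose by 0.25, 1.23 and 0.26 on the log2 scale (adjusted P = 0.00447, 0.00994 and 0.0143), where Acvr1c was near the floor, at 0.112 and 0.262 CPM. The call of Acvr1c was lost without high glucose replicate 1 (adjusted P = 0.0584), and that of Bambi without normal glucose replicate 3 or high glucose replicate 1 or 2 (0.0585, 0.0743 and 0.0757). Acvr1 and Bambi did not pass with library size scaling (adjusted P = 0.0606 and 0.120). Tgfbr3l fell by 0.90 (adjusted P = 0.0319), but 52.2% of its exonic bases are shared with Gm49320 on the same strand, which had 0 counts in normal glucose and 5.08 ± 2.99 CPM in high glucose, and the call was lost without normal glucose replicate 1, 2 or 3 or high glucose replicate 1 (adjusted P between 0.0560 and 0.0728). Tgfbr1, a type I receptor that myostatin can use, had 91.9 ± 8.61 and 92.1 ± 4.76 CPM (adjusted P = 0.979).

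Of the 11 tested genes for SMADs and their regulators, 5 rose, 2 fell and 4 did not pass, where 16.9% of all tested genes passed as higher and 14.5% as lower. Smad3 rose by 0.31 on the log2 scale and Smad4 by 0.19 (adjusted P = 0.00711 and 0.0128), whereas Smad2 had a log2 ratio of 0.10 (adjusted P = 0.226). Zfyve9, which encodes an anchor of SMAD2 and SMAD3, the ubiquitin ligase gene Smurf2 and the corepressor gene Ski rose by 0.20, 0.30 and 0.19. With library size scaling none of these 5 rises passed, with adjusted P values between 0.0577 for Smad3 and 0.334 for Ski. Of the 6 fits that left out a sample, 4 lost the calls of Smad4 and Smurf2 (without normal glucose replicate 3 or any high glucose replicate) and 5 those of Zfyve9 and Ski (all but that without normal glucose replicate 2), with adjusted P values between 0.0510 and 0.179. Smurf1, another ubiquitin ligase gene, did not pass (-0.13, adjusted P = 0.177) but passed as lower without normal glucose replicate 1 (-0.22, adjusted P = 0.00316). Smad7, the inhibitory SMAD, fell from 31.9 ± 0.703 to 21.3 ± 0.962 CPM (SD, n = 3), a log2 ratio of -0.59 (adjusted P = 2.31e-05), and the corepressor gene Skil fell by 0.23 (adjusted P = 0.0158). Of the 7 genes taken as responsive to SMAD2 and SMAD3, which TGF-β also induces, 5 fell, 1 rose and 1 did not pass, beside the same shares of 14.5% lower and 16.9% higher over all tested genes. Ccn2 fell by 0.51, Tgfbi by 0.40 and Pmepa1 by 0.20 on the log2 scale (adjusted P = 3.31e-05, 1.70e-04 and 0.0148), Smad7 and Skil belong to this group too, and Ltbp2 rose by 0.27 (adjusted P = 0.00726). Ltbp2 did not pass with library size scaling (adjusted P = 0.0670). The call of Ltbp2 was lost without high glucose replicate 1 (adjusted P = 0.0612), that of Pmepa1 without high glucose replicate 1 or 3 (0.0545 and 0.0576), and that of Skil without high glucose replicate 3 (0.0648). Ccn2 shares 23.2% of its exonic bases with Gm15270 on the opposite strand, counted at 0.291 and 0.340 CPM. Ltbp2 shares 9.34% with D030025P21Rik and Zfyve9 10.9% with 3110021N24Rik, both on the opposite strand and counted at 4.70 and 3.44 CPM and at 0.172 and 0.276 CPM.

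**Figure D4:**
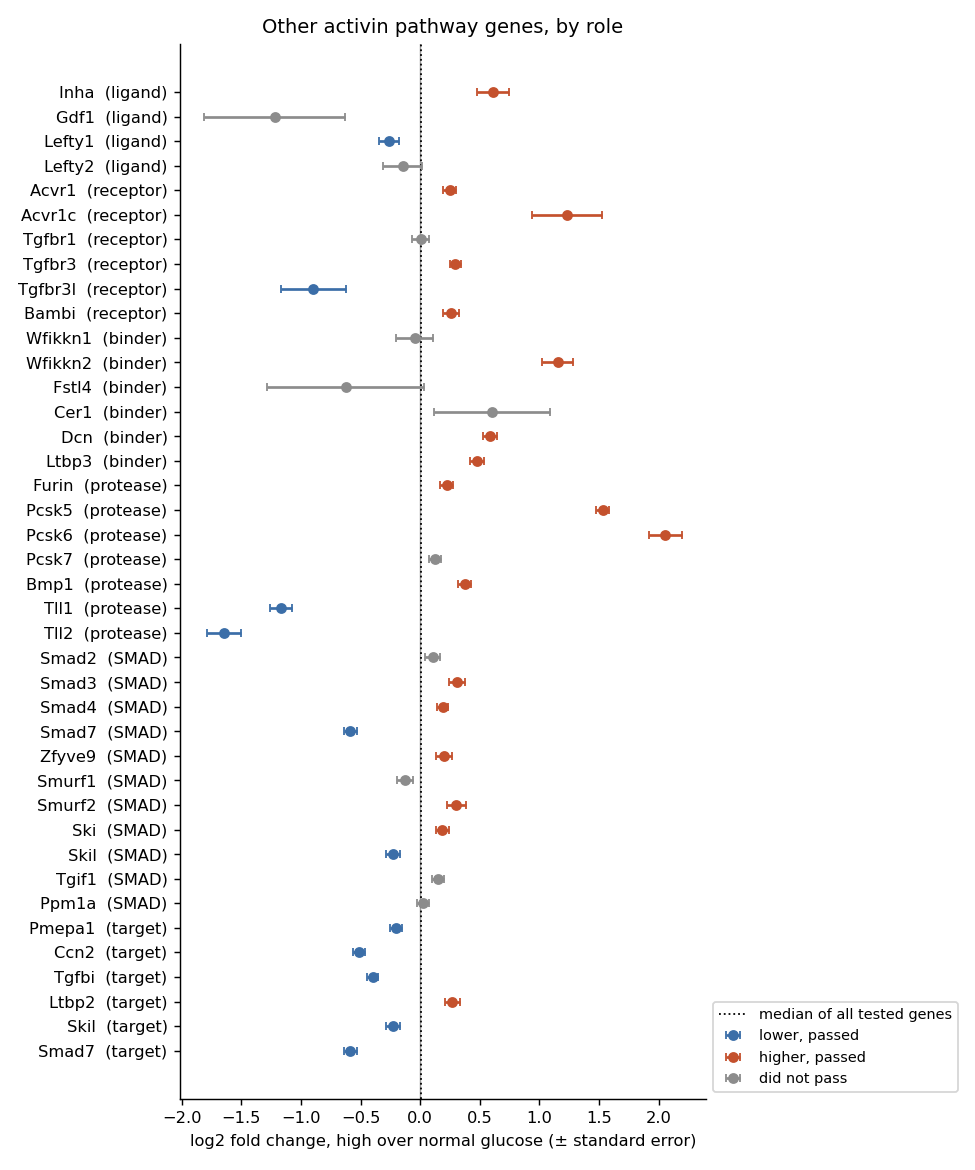
Log2 ratio of high over normal glucose (x axis, bars are standard errors) for the tested genes of the pathway list that are reported here, by role (y axis). Skil and Smad7 appear under both SMADs and targets. Colours give genes that passed as lower or higher and those that did not pass. Pcsk6 and Pcsk5 lie highest at 2.06 and 1.53, Tll2 lies lowest at -1.65, and 5 targets passed as lower.

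The genes whose profile over the 6 samples was most like that of Mstn were sought among 13466 genes by the root mean square difference between log2 CPM values centred on each gene's mean. They were Cck at 0.396, Mcpt8 at 0.418, Mgp at 0.456, Prkcb at 0.55 and Etv4 at 0.609 log2 units. All 5 were lower in high glucose, as this measure of likeness requires. Cck, a gut and brain peptide hormone gene, was at 75.1 ± 11.4 CPM in normal glucose and 9.98 ± 0.974 CPM in high glucose (SD, n = 3), Mgp, which encodes matrix Gla protein, at 18.7 ± 1.73 and 2.69 ± 0.700 CPM, and Prkcb, a protein kinase C gene, at 2.67 ± 0.425 and 0.453 ± 0.0700 CPM.

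The genes around Mstn on chromosome 1 were read as well, a window chosen after the Mstn values were known. Within 500 kb on either side lay 28 other annotated genes, of which 11 were tested. Of these, 4 fell (Inpp1, Pms1, Ormdl1 and Asnsd1), 1 rose (Nemp2) and 6 did not pass the test, where 14.5% of all tested genes passed as lower and 16.9% as higher. Their log2 ratios lay between -0.70 and 0.37 with a median of -0.34. The largest change that passed was that of Ormdl1, whose start lies 235.5 kb away, from 6.44 ± 0.345 to 4.29 ± 0.394 CPM (SD, n = 3), a log2 ratio of -0.59 (edgeR adjusted P = 9.49e-04). The nearest tested gene, 1700019D03Rik, whose start lies at -41.5 kb from that of Mstn, was lower in every high glucose sample but did not pass (0.171 ± 0.0287 and 0.116 ± 0.0207 CPM, log2 ratio -0.57, edgeR adjusted P = 0.182). Hibch, also before the start of Mstn, had 16.7 ± 0.561 and 17.2 ± 1.57 CPM (adjusted P = 0.679). No tested neighbour came near the fold change of Mstn.

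**Figure D5:**
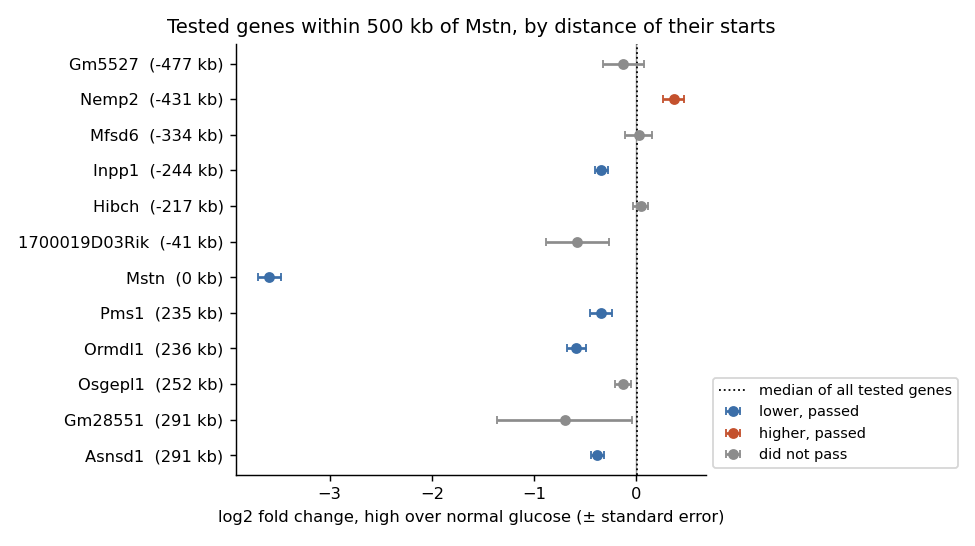
Log2 ratio of high over normal glucose (x axis, bars are standard errors) of Mstn and the 11 tested genes within 500 kb (y axis, in the order of their starts, with the distance from the start of Mstn in kb). Colours give genes that passed as lower or higher and those that did not pass. Mstn lies at -3.59, and its neighbours lie between -0.70 and 0.37.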

How the data were processed

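Bulk RNA-sequencing counts of 6 samples were analysed. The authors deposited whole-number counts per gene without normalization. Their processing notes name Trimmomatic, HISAT2, StringTie and the build GRCm38. Versions, the strand setting and the annotation release are not given in the sources used here. Of the 55487 identifiers, 55141 had a symbol.

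Counts were filtered with filterByExpr (minimum count 10, minimum total count 15), TMM-normalized and tested with edgeR 4.0.16 in R 4.3.3 (quasi-likelihood test, Benjamini-Hochberg adjustment over all 19015 tested genes, threshold 0.05 with no minimum fold change). The biological coefficient of variation was 8.44%. The fit was run on simulated data with a common dispersion for all genes and few changed genes, unlike these data, so this checks the code alone. Standard errors came from the test statistic. Gene positions, exon lengths and transcripts came from GENCODE M21 (GRCm38), and promoters from RefSeq (GRCm38.p6). Replicates of a group differed by more than sampling noise. The members and lists were chosen with earlier results of these data known. Named genes were the 10 members, genes of the pathway and marker lists, genes overlapping them, and the 5 genes most like Mstn among those with a mean log2 CPM of at least 0. Both reads of a pair may have been counted, and floors cover counting error only, whereas standard errors and P values include the spread between samples. Alternatives were a likelihood ratio test, DESeq2 1.42.0, other normalizations, filters, thresholds and lengths, halved counts, the replicate block and each sample left out. A gene of the pathway list, kept in its counts, and a coding sequence are not reported here.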

Additional observations from a re-analysis of the deposited data

How the results depend on the processing

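The log2 fold change of Mstn kept its direction in each of the 17 alternatives run, between -3.71 with library size scaling and -3.52. Its range was -3.65 to -3.52 when 1 sample was left out. The alternatives that changed only the threshold reused the main fit, so they could not move the Mstn value. The 10 genes were chosen by this same comparison, so their place against the threshold here is a description and no test. Scaled by library size alone, 4884 genes were lower and 1819 higher (72.9% lower, against 46.2% with TMM and 56.5% with upper quartile normalization) and 9 higher pathway list genes. It also brought Gdf11 past the threshold as lower (-0.15), and under it Fstl3 changed sign. Fst passed the threshold without normal glucose replicate 1 and Acvr2b without normal glucose replicate 3. An adjusted p under 0.01 left 1671 lower and 1946 higher genes and 5 lower pathway list genes. Requiring a log2 change of at least 1 kept 542 lower and 395 higher genes, 2 lower and 4 higher pathway list genes, and 1 lower and 0 higher of the 10 genes. Leaving out 1 sample gave 2048 to 3065 lower and 1988 to 3149 higher genes, 6 to 9 lower and 10 to 18 higher pathway list genes, and 2 lower and 4 to 5 higher of the 10 genes. Without high glucose replicate 1 there were 2010 higher genes, and without high glucose replicate 3 there were 1988. Why these counts moved was not tested. The replicate numbers are only numbers here, since deviations of same-numbered samples correlated at -0.084, 0.14 and -0.061. With the replicate block, 2418 genes were lower and 2909 higher, Mstn was at -3.59, and of the 10 genes and the pathway list, for which this fit was read, Lefty1 and Ski lost their call and no other did. Depth limits the genes with the fewest counts, such as Pecam1, Erg and Acvr1c.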
